A study of Homo sapiens with 4 samples.

Results

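The rows described here are those of the deposited gene table that carry the symbol of a small noncoding RNA: small nucleolar RNAs, the small RNAs of the Cajal body, microRNA genes, minor small nuclear RNAs, a vault RNA and the RNA subunits of RNase MRP and RNase P. The rule that picks them uses the gene symbol and no measured value, though it was written with earlier results of these data known, and they number 150 of the table's 16328 rows. The classes hold 56 rows of C/D box snoRNAs, 44 of H/ACA box snoRNAs, 13 of Cajal body RNAs, 32 of microRNAs, 2 of small nuclear RNAs and 1 row each of vault RNA, RMRP and RPPH1. No row carried a Y RNA symbol. The study used Jurkat cells, an established human T lymphocyte line, transduced with lentiviral particles made from the pGreenPuro shRNA vector in the presence of 2 µg/ml polybrene. There was 1 library named Control and 3 named SLEAR shRNA, numbered 1 to 3 (SLEAR shRNA-1 and so on). Where a row's values are given in series, Control comes first and the SLEAR shRNA libraries follow by number. What the Control cells received is not stated in the labels beyond that name, and nothing in them tells whether a number stands for another hairpin or a repeat, or whether the cultures were separate. SLEAR, the RNA targeted by the hairpins, was not analysed here because no row was matched to its name, so how far it was lowered was not checked. RNA was polyadenylated RNA, and the libraries were made with Multiplex Analysis of PolyA-linked Sequences (MAPS), which reads near poly(A) tails and not along the whole transcript.

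Small nucleolar RNAs are stable nuclear RNAs that guide chemical changes of other RNAs. Those with C and D boxes guide ribose methylation together with fibrillarin, and those with an H box and an ACA box guide pseudouridylation together with dyskerin. Most are cut from introns of genes for ribosome or translation proteins, or of host genes that make no protein. Small Cajal body RNAs do the same work on spliceosomal RNAs. MicroRNAs are cut by Drosha and Dicer from hairpins, and bases 2 to 8 of the mature strand, the seed, pair with target mRNAs. The mature forms of these RNAs carry no poly(A) tail, while primary transcripts and intermediates on the way to decay or trimming can carry one. A value in a library of polyadenylated RNA is therefore not a level of the mature small RNA.

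The sequences below are of the members that the results turn on, written 5′ to 3′. The mature microRNAs are from the RefSeq table for GRCh38.p14, and the capitals mark the seed.
hsa-miR-3614-5p: cCACUUGGaucugaaggcugccc
hsa-miR-3614-3p: uAGCCUUCagaucuugguguuuu
hsa-miR-3654: gACUGGACaagcugaggaa
hsa-miR-4426: gAAGAUGGacguacuuu
hsa-miR-4647: gAAGAUGGugcugugcugaggaa
hsa-miR-7703: uUGCACUCuggccuucucccagg
hsa-miR-3652: cGGCUGGAggugugagga
hsa-miR-3655: gCUUGUCGcugcgguguugcu
Of the 31 microRNA genes in the rows, 25 had a mature sequence in that table, with 38 mature strands and 37 different seeds. The single seed found on more than 1 strand was that of miR-4426 and miR-4647.

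The next 2 hairpins are shown because most of their letters are also letters of an mRNA. The capitals mark the run that is identical to the coding sequence of RPS27A, which encodes a ubiquitin and ribosomal protein fusion, or of EEF1G, which encodes a subunit of translation elongation factor 1.
MIR4426 hairpin, beside RPS27A: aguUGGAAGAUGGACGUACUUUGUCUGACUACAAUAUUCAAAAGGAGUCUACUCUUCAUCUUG
MIR3654 hairpin, beside EEF1G: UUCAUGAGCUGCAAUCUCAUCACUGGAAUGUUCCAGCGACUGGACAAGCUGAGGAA
In MIR4426, 60 of 63 bases lay in 1 exact run of the RPS27A coding sequence, and in MIR3654 all 56 bases lay in that of EEF1G. The MIR4426 and MIR3654 genes are at other places in the genome than these mRNAs' genes. Both mRNAs also have near-identical pseudogene copies, so how reads were split among rows is uncertain.

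Finally, 7 snoRNAs are shown, from GENCODE transcripts on GRCh38. In the C/D box snoRNAs the capitals mark the C box letters TGATGA within the first 18 bases and the D box letters CTGA within the last 15. In the H/ACA box snoRNAs they mark ACA within the last 10.
SNORD57: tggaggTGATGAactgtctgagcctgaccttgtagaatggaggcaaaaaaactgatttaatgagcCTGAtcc
SNORD11: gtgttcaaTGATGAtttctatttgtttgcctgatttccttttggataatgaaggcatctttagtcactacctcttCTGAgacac
SNORD110: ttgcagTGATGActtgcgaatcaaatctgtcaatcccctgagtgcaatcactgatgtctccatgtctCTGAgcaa
SNORD86: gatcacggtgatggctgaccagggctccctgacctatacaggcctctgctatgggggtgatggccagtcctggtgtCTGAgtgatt
SNORD104: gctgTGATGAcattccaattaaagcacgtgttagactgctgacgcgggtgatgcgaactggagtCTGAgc
SNORA67: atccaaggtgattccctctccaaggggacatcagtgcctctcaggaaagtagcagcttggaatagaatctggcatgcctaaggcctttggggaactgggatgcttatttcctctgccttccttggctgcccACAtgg
SNORA2B: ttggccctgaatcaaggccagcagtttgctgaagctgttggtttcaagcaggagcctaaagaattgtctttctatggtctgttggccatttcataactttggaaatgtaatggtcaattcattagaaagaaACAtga
These exact letters, searched on the RNA's own strand, were both present in 28 of 52 C/D sequences (53.8%) and in 0 of 41 H/ACA sequences. ACA near the 3′ end was present in 36 of 41 H/ACA sequences (87.8%) and in 3 of 52 C/D sequences (5.77%). SNORD86 held the D box letters but not TGATGA in the window searched.

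Values were deposited as RPM, reads scaled to the library's total. The depth behind them was estimated from the size of 1 read in each column, and came to 8384889 reads in the Control library and 7048620, 7524253 and 4814165 reads in the SLEAR shRNA libraries by number. A count of 3 reads corresponded to 0.358, 0.426, 0.399 and 0.623 RPM, in that order. SLEAR shRNA-3 stood apart from the other libraries before any result, with 6941 of the 16328 rows at 0 against 2984, 2641 and 2314 rows. The 8 T lymphocyte markers examined summed to 3817, 4203, 4123 and 4296 RPM, mostly from CD3D, CD247, LCK and CD3E. CD2 read 67.0, 82.7, 87.1 and 44.5 RPM, lowest in SLEAR shRNA-3, and CD28 read 7.87, 1.28, 2.92 and 0 RPM, below Control in all 3 (difference -2.10 ± 1.01, SE, not past the test). CD3G was at or under 3 reads in every library. Among markers of other cells, CD79A read 12.05, 20.7, 18.3 and 21.6 RPM and CD79B 0, 1.28, 1.33 and 1.45 RPM, both above Control in all 3 libraries. The myeloid marker CD14 read 1.91, 0.993, 0.797 and 0 RPM and the epithelial marker KRT8 1.31, 1.84, 3.19 and 0 RPM, while ITGAM and KRT18 were at 0 in every library. The part of these markers in the results was not tested.

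Short rows carried a further factor. Among 236 values above 0 in rows under 300 bases, 24 (10.2%) were whole numbers of reads as deposited, and 206 (87.3%) became whole after multiplication by the row's length over 300 bases, within 0.05 of a read. The deposited RPM of a short row was thus raised by 300 over its length, up to 5.36 times for the shortest. This factor is the same in every library, so it leaves the ratio between libraries of 1 row as it is, but levels of rows of different length cannot be set against each other as RPM. Estimated reads, with that factor removed, are therefore given beside RPM. Reads could not be estimated for MIR3607, MIR4647, MIR4709 and SNORA73B. PCR copies were not marked, so reads are not independent molecules.

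Small noncoding RNA rows were sparse. Of the 150 rows, 27 (18%) were at 0 in every library and 18 (12%) were above 0 in all 4, where 5.09% and 55.3% of all rows were. Another 56 rows were above 0 in 1 library alone. In 33 rows at least 1 library held 10 or more estimated reads, and the median of the highest estimated read number per row was 3. Members above 0 numbered 65 in the Control library, 80 in SLEAR shRNA-1, 82 in SLEAR shRNA-2 and 23 in SLEAR shRNA-3. A count of 0 allows a level up to that of 3 reads, so a row at 0 was not detectable at this depth and is not shown to be absent. In bulk RNA such as this, fewer cells with an RNA and less of it per cell cannot be told apart.

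Among C/D box snoRNAs, 19, 30, 24 and 4 rows were above 0 in the 4 libraries. H/ACA box snoRNAs had 20, 22, 25 and 5 rows above 0. Cajal body RNAs had 7, 9, 11 and 3, and microRNAs had 14, 15, 19 and 9. SLEAR shRNA-3 was the lowest library in all 4 of these classes.

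**Figure D1:**
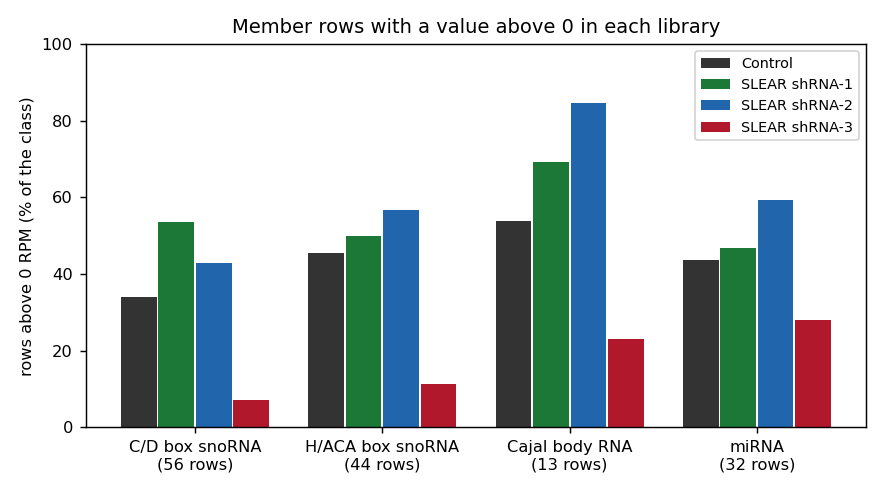
The bars give the share of rows above 0 RPM, in percent of the rows of each class, in the Control and the 3 SLEAR shRNA libraries. SLEAR shRNA-3 has the lowest bar in every class, with 4 of 56 C/D box rows above 0.

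The zeros of SLEAR shRNA-3 were compared with those of all other rows in bins of read number. Where SLEAR shRNA-1 and SLEAR shRNA-2 held a mean of 5 to under 10 estimated reads, 12 of 18 members (66.7%) and 993 of 1401 other rows (70.9%) were at 0 in SLEAR shRNA-3. At 10 to under 20 reads the counts were 3 of 5 members (60.0%) and 846 of 1518 other rows (55.7%). SNORA73B was placed in that bin by its RPM over the size of 1 read, because its reads could not be estimated. At 20 or more reads they were 2 of 11 members (18.2%) and 963 of 8802 other rows (10.9%). This last bin has no upper limit, so members and other rows are not matched in level there. The shares of members and of other rows lay within 10 percentage points of each other in all 5 bins, and the number of members per bin was small. The members at 20 or more reads that read 0 in SLEAR shRNA-3 were SNORD104 and MIR3607, the latter by its RPM over the size of 1 read because its length factor is not known.

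**Figure D2:**
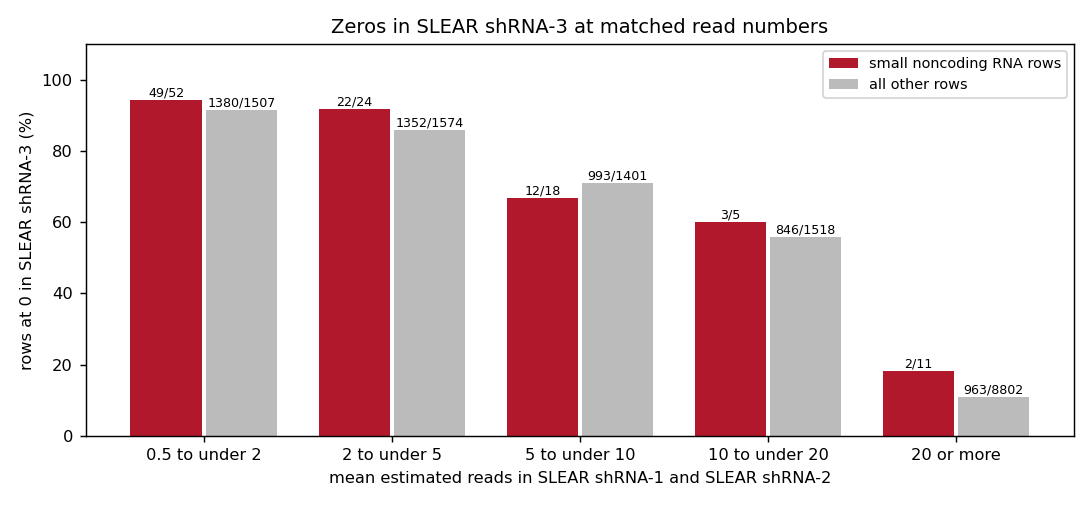
The bars give the percentage of rows at 0 in SLEAR shRNA-3, by the mean estimated reads in SLEAR shRNA-1 and SLEAR shRNA-2, for small noncoding RNA rows (red) and all other rows (grey), with the counts above each bar. Both fall together, from 94.2% and 91.6% at 0.5 to under 2 reads to 18.2% and 10.9% at 20 or more.

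The comparison of the design, SLEAR shRNA against Control, asked which rows changed when the hairpins were expressed. It was tested over all rows with a value of at least 1 RPM in at least 1 library, on the log2(RPM + 1) scale with limma. With 1 Control library, the spread came from the 3 SLEAR shRNA libraries alone and the Control was assumed to vary alike. In limma the spread of each row was also drawn towards that of rows of like level. An SE given here is therefore not the scatter of that row alone. Every p-value thus rests on the scatter of these libraries, which may be technical, and an exact permutation test of 1 library against 3 cannot go below 0.25. Of 12350 rows tested, 0 passed an adjusted p of 0.05 in limma (0%), and the smallest adjusted p was 0.993. Among the 80 members that passed the filter, 0 were called, in either direction, and limma-voom on estimated reads also called 0.

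At an unadjusted p under 0.05, 0 members lay higher and 6 lay lower in the SLEAR shRNA libraries, against 0.745% and 1.94% of all rows tested. These 6 rows, SNORD57, SNORD11, SNORD110, SNORA2B, MIR3655 and VTRNA1-3, each reached the filter of 1 RPM in the Control library alone. They were let into the test by the group in which they are high, so their p-values are no support for a difference and are not given, and their values are descriptions. In all 3 SLEAR shRNA libraries at once, 2 of the 80 tested members lay above Control, against 17.8% of all rows, and 28 lay below it (35.0%), against 28.6%. In SLEAR shRNA-3, 22 of 24 members (91.7%) with a mean of 2 to under 5 reads in SLEAR shRNA-1 and SLEAR shRNA-2 were at 0. Of other rows in that bin, 1352 of 1574 (85.9%) were. Without SLEAR shRNA-3, 16 members lay above Control in both libraries and 30 below, where 35.2% and 41% of all rows did. The median difference of the tested members was -0.07 on the log2(RPM + 1) scale, and that of all tested rows was -0.11. The sign of the members' median turned with the filter, from 0.13 over the 123 rows above 0 somewhere to -0.56 over 35 rows with at least 10 estimated reads, so it has no firm direction. The 35 include MIR3607 and SNORA73B by their RPM over the size of 1 read, because their reads could not be estimated. A row of few reads can pass the filter through 1 high library, and these counts and medians are descriptions only. By class the median was -0.04 for 26 C/D box rows, -0.29 for 22 H/ACA rows, -0.14 for 8 Cajal body rows and 0.35 for 19 microRNA rows. The 2 MIR4426 rows, which hold the same reads and lay below Control, are taken separately in these counts and medians.

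**Figure D3:**
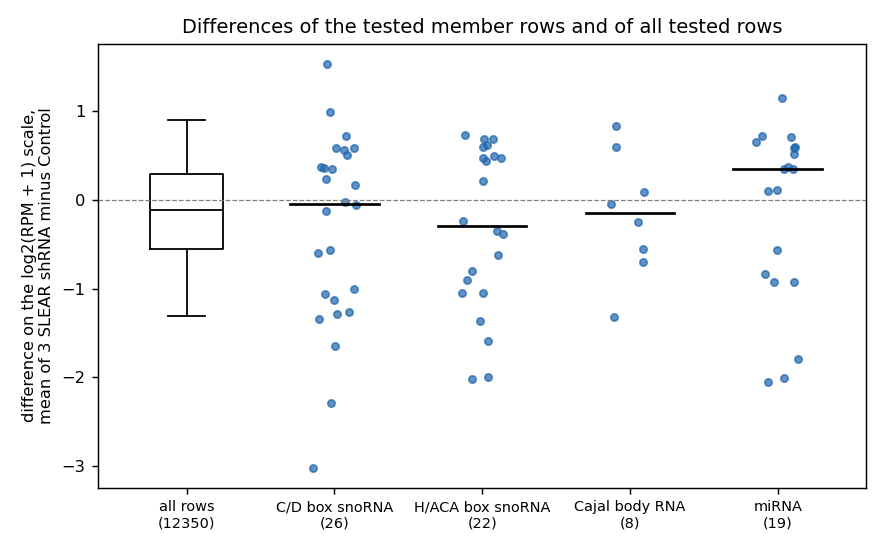
Each point is 1 tested member row, as the mean of the 3 SLEAR shRNA libraries minus Control on the log2(RPM + 1) scale, and horizontal lines are class medians. The box gives the median and quartiles of all 12350 tested rows with whiskers from the 5th to the 95th percentile. The class medians run from -0.29 to 0.35, and the lowest point is SNORD57 at -3.02.

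Among C/D box snoRNAs, the lowest difference was that of SNORD57, which lies in an intron of NOP56, the gene of a core protein of C/D box particles. SNORD57 read 8.45 RPM in the Control library (17 reads), 0.591 in SLEAR shRNA-1 (1 read) and 0 in the others. The Control library alone was high and did not overlap the others. The difference was -3.02 on the log2(RPM + 1) scale. SNORD110, in another intron of NOP56, read 1.43 RPM in Control (3 reads) and 0 in all 3 SLEAR shRNA libraries, which is at the limit of what 3 reads can show.

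SNORD86, also within NOP56, read 7.07, 4.45, 4.64 and 4.35 RPM (17, 9, 10 and 6 reads). The 3 SLEAR shRNA libraries lay close together and below Control (4.48 ± 0.146, SD, n = 3), and the difference of -0.56 ± 0.67 (SE) did not pass the test (unadjusted p = 0.445, adjusted p = 0.993, limma). The remaining NOP56 members, SNORD56 and SNORA51, were at 0 in the Control library and had 1 and 5 reads in SLEAR shRNA-1. The 5 NOP56 members together held 37, 16, 12 and 6 reads. NOP56 itself read 842, 637, 751 and 1286 RPM, so that the host lay on both sides of Control. Its difference was 0.01 ± 0.45 (SE). In GENCODE, all bases of SNORD57 (72), SNORD110 (75) and SNORD86 (86) are also 1 exact run of a processed NOP56 transcript not classed as protein-coding. Their reads cannot be told by sequence from those of such a transcript.

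SNORD11 lies in an intron of NOP58, the gene of the other NOP56-related core protein of C/D box particles. It read 5.11, 0, 0.949 and 0 RPM (12, 0, 2 and 0 reads), with Control alone high. The difference was -2.29 on the log2(RPM + 1) scale. NOP58 read 52.8 RPM in Control against 39.6, 44.3 and 50.9 RPM, below Control in each SLEAR shRNA library, with a difference of -0.24 ± 0.28 (SE) that did not pass the test.

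SNORD104, in an intron of the noncoding host SNHG25, had the highest mean RPM of its class. Its values were 17.4, 10.6, 16.4 and 0 RPM (39, 20, 33 and 0 reads). The SLEAR shRNA libraries therefore ran from 0 to nearly the Control value (9.03 ± 8.34, SD, n = 3). SNORD43 lies in an intron of RPL3 by the RefSeq table, but 62 of its 64 bases in GENCODE are also 1 exact run of a protein-coding RPL3 transcript, so its reads cannot be told from those of that transcript. It went the other way in 2 of 3 libraries: 4.62 RPM in Control, then 7.55, 16.7 and 3.02 RPM (8, 11, 26 and 3 reads). RPL3, which encodes a large-subunit ribosomal protein, read 2608 RPM in Control and 3827, 3730 and 3520 RPM. All 3 SLEAR shRNA libraries lay above Control for the host (difference 0.50 ± 0.24, SE, adjusted p = 0.993, limma), but not for the snoRNA.

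SNORD60, in the noncoding host SNHG19, was the single C/D box row above Control in all 3 libraries, at 2.16 RPM against 3.08, 2.40 and 2.25 RPM. These are 5, 6, 5 and 3 reads, and the difference of 0.17 ± 0.70 (SE) is smaller than its error. SNORD58C, within RPL17, read 5.96, 1.42, 7.53 and 0 RPM, and SNORD68, within RPL13, read 1.99, 0.591, 1.11 and 6.06 RPM. Neither row held the same order in the 3 SLEAR shRNA libraries. SNORD63, within HSPA9, held 0, 10, 4 and 0 reads. It was named after its values were seen.

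Among H/ACA box snoRNAs, SNORA67 had the highest level and was the single member of its class above Control in all 3 SLEAR shRNA libraries. It lies in an intron of EIF4A1, the gene of the RNA helicase of translation initiation. SNORA67 read 12.8 RPM in Control and 14.9, 23.3 and 27.3 RPM elsewhere (49, 48, 80 and 60 reads). The groups did not overlap, with SLEAR shRNA-1 close to Control. The difference was 0.69 ± 0.49 (SE), with an unadjusted p of 0.231 and an adjusted p of 0.993 in limma. EIF4A1 read 205 RPM in Control and 208, 206 and 164 RPM, a difference of -0.10 ± 0.23 (SE). SNORA67 was 1 of 11 members with a mean of at least 20 estimated reads in SLEAR shRNA-1 and SLEAR shRNA-2, and it was not low in SLEAR shRNA-3.

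SNORA2B, in an intron of KANSL2, read 4.18 RPM in Control and 0.621, 0.291 and 0 RPM (16, 2, 1 and 0 reads). Control alone was high. The difference was -2.02 on the log2(RPM + 1) scale. KANSL2, which encodes a subunit of a histone acetyltransferase complex, read 2.74, 0.284, 3.06 and 0 RPM, so SLEAR shRNA-2 lay at the Control level for the host and near 0 for the snoRNA.

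SNORA20, in an intron of the chaperonin gene TCP1, read 7.32 RPM in Control and 1.93, 2.11 and 0 RPM (27, 6, 7 and 0 reads). TCP1 itself read 233 RPM in Control and 157, 149 and 85.6 RPM. Both rows lay below Control in all 3 libraries, the snoRNA by -1.99 ± 0.97 (SE) and the host by -0.88 ± 0.41 (SE), and neither passed the test (unadjusted p = 0.102 and 0.0918).

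TAF1D, which encodes a subunit of the RNA polymerase I selectivity factor, hosts 3 members. SNORA25 read 5.96 RPM in Control and 10.6, 5.13 and 1.89 RPM, and SNORA32 read 3.84 RPM in Control and 2.11, 0.330 and 0 RPM. TAF1D lay at 28.03 RPM in Control and at 29.7, 31.8 and 32.0 RPM. The 2 snoRNA rows of this 1 host thus differed from each other in SLEAR shRNA-1, where SNORA25 lay above Control and SNORA32 below it. SNORA61, in SNHG12, read 3.30 RPM in Control and 0.982, 2.15 and 1.44 RPM, below Control in all 3, while SNHG12 lay between 194 and 218 RPM. SNORA31, within TPT1, read 2.48, 2.29, 0.613 and 2.88 RPM and overlapped Control.

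Among the Cajal body RNAs, SCARNA9 held the most reads of all members in the Control library, and its values lay within a narrow range in the SLEAR shRNA libraries. It lies in an intron of CEP295, which encodes a centrosomal protein. SCARNA9 read 34.8 RPM in Control and 24.3, 24.2 and 22.0 RPM elsewhere (292, 171, 182 and 106 reads). Its row is longer than 300 bases and carries no length factor. The 3 SLEAR shRNA libraries (23.5 ± 1.27, SD, n = 3) lay below Control, and the difference was -0.55 ± 0.31 (SE) with an unadjusted p of 0.147 and an adjusted p of 0.993 in limma. In a fit without SLEAR shRNA-3, restricted to rows whose log2(RPM + 1) averaged 4 or more, the difference was -0.51. CEP295 read 50.8 RPM in Control and 41.6, 45.5 and 81.8 RPM, and so lay above Control in SLEAR shRNA-3 where the small RNA lay below.

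SCARNA17, which overlaps an exon of the noncoding SNHG22, read 6.08, 5.82, 9.97 and 4.78 RPM (51, 41, 75 and 23 reads), on both sides of Control. SCARNA12, in an intron of the prohibitin gene PHB2, read 2.65, 0, 5.02 and 6.46 RPM (20, 0, 34 and 28 reads). Here SLEAR shRNA-1 was the library at 0, while PHB2 lay between 575 and 714 RPM in all 4. SCARNA22, in an intron of NSD2 (listed as WHSC1), read 4.87, 8.85, 3.83 and 0 RPM. SCARNA20, within USP32, was below Control in all 3, at 1.93 RPM against 0, 0.613 and 0 RPM. SCARNA18, within TMEM167A, read 0, 2.54, 0.595 and 0 RPM.

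**Figure D4:**
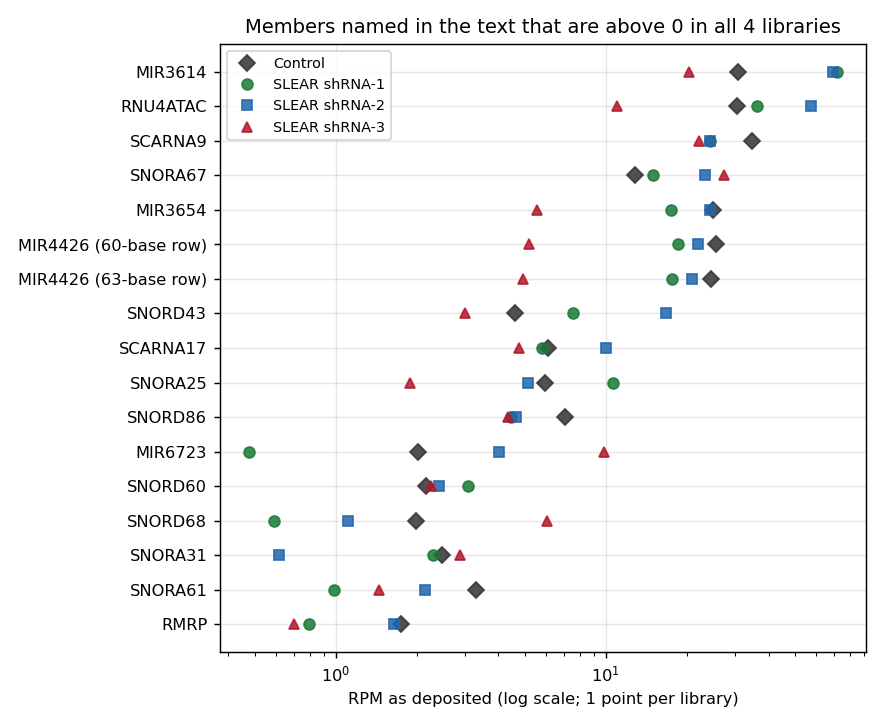
Points give the deposited RPM in each library on a log axis for 17 of the 18 members above 0 in all 4 libraries; MIR4709 is left out. SNORA67 has all 3 SLEAR shRNA points above Control, SCARNA9 and SNORD86 have them below, and MIR3614 has SLEAR shRNA-1 and SLEAR shRNA-2 near 70 RPM and SLEAR shRNA-3 at 20.3 RPM.

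The 3 microRNAs with the most reads, MIR3614, MIR4426 and MIR3654, share all or most of their hairpin sequence with a spliced mRNA. Of the 32 microRNA rows, 14 share at least 90% of their length in 1 exact run with a spliced protein-coding transcript. For the other 18 no such run was found, and MIR3607 among them had no sequence to search. In the first set 5 rows (35.7%) were above 0 in all 4 libraries and 6 (42.9%) held 10 or more estimated reads somewhere. These counts take the 2 MIR4426 rows, which hold the same reads, separately. In the second set the counts were 1 (5.56%) and 2 (11.1%). MIR3607, MIR4647 and MIR4709, which have no estimated reads, could not count towards 10 reads. The median of the highest estimated read number was 11 in the first set and 2 in the second. Reads of a hairpin and of the identical mRNA cannot be told apart by sequence, and the sources used here do not give how reads were assigned to rows.

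MIR3614 is the member with the highest mean RPM as deposited, which includes its length factor. SCARNA9 held more estimated reads in each library (292, 171, 182 and 106). The MIR3614 hairpin lies wholly inside an untranslated exon of TRIM25, which encodes a ubiquitin ligase of the interferon response, on the same strand. It read 30.8, 71.8, 69.5 and 20.3 RPM (74, 145, 150 and 28 reads). SLEAR shRNA-1 and SLEAR shRNA-2 lay together above Control, and SLEAR shRNA-3 lay below it. Over all 3 libraries the difference was 0.59 ± 0.82 (SE), with an unadjusted p of 0.510 and an adjusted p of 0.993 in limma.

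Without SLEAR shRNA-3 the difference of MIR3614 was 1.17, over all rows tested and among rows averaging 4 or more on the log2 scale. These fits held the 1 Control library beside SLEAR shRNA-1 and SLEAR shRNA-2. In the restricted fit the spread came from the trend over its rows and not from the scatter of each row. Its p-values are therefore no support for a difference and are not given. The row of TRIM25 itself read 23.4 RPM in Control and 22.6, 29.2 and 18.9 RPM, a difference of -0.01 ± 0.40 (SE). The other 5 members in the restricted fit were RNU4ATAC (difference 0.57), SCARNA9 (-0.51), SNORA67 (0.51), 1 MIR4426 row (-0.34) and MIR3654 (-0.26).

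MIR3654 and MIR4426 are the hairpins printed above with their mRNA-identical runs. MIR3654 read 24.9, 17.5, 24.2 and 5.56 RPM (39, 23, 34 and 5 reads), with SLEAR shRNA-2 near Control and SLEAR shRNA-3 lowest. EEF1G read 160, 150, 192 and 166 RPM, and CHCHD3, in whose intron the MIR3654 gene lies, read 61.8, 42.0, 40.3 and 50.7 RPM. MIR4426 has 2 rows in the table that hold the same estimated reads, 43, 26, 33 and 5, scaled as 63 and as 60 bases. They read 24.4, 17.6, 20.9 and 4.95 RPM and 25.6, 18.4, 21.9 and 5.19 RPM, so they count as 1 measurement. RPS27A read 4.05, 9.51, 6.11 and 18.3 RPM, lowest in Control and highest in SLEAR shRNA-3, which is the opposite order to MIR4426 at both ends. The differences of MIR3654 (-0.84 ± 0.88, SE) and of both MIR4426 rows (-0.92 ± 0.90 and -0.93 ± 0.89) were about as large as their errors.

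Other microRNA rows were seen in some libraries and not in others. MIR7703, which overlaps the coding exon of the proteasome activator gene PSME2 in part, read 2.32, 0, 6.73 and 20.2 RPM (5, 0, 13 and 25 reads). SLEAR shRNA-3 was highest here, unlike in most members, while PSME2 lay between 182 and 261 RPM. MIR632 read 9.94 RPM in SLEAR shRNA-3 (15 reads) and 0 in the other 3 libraries, and shares 86 of its 94 bases with ZNF207. MIR6723 read 2.01, 0.478, 4.03 and 9.80 RPM.

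MIR3655, whose 83 bases all lie in 1 exact run of a protein-coding IK transcript of GENCODE, was seen in Control alone, at 3.02 RPM (7 reads), and was at 0 in all 3 SLEAR shRNA libraries. IK, a splicing factor gene, lay at 2997 RPM in Control and at 3148, 2709 and 1971 RPM. MIR3652, inside an exon of the chaperone gene HSP90B1, read 5.46 RPM in Control and 1.30, 1.83 and 0 RPM (20, 4, 6 and 0 reads). HSP90B1 read 121, 88.7, 97.8 and 31.2 RPM. Both rows lay below Control in all 3 libraries, with differences of -1.79 ± 0.87 (SE) and -0.89 ± 0.72 (SE) that did not pass the test. MIR3607 read 9.06, 3.77, 2.02 and 0 RPM.

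The 5 rows of small nuclear, vault, RNase MRP and RNase P RNA are of genes with their own promoters, and 4 of them lie in no host on the same strand by the RefSeq table. RNU4ATAC, the U4atac RNA of the minor spliceosome, read 30.5, 36.3, 57.4 and 11.0 RPM (111, 111, 187 and 23 reads). The SLEAR shRNA libraries ran from below to above Control, and the difference was -0.09 ± 0.96 (SE). Without SLEAR shRNA-3 it was 0.57. RNU11, of the same spliceosome, held 2, 5, 0 and 0 reads.

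VTRNA1-3, a vault RNA transcribed by RNA polymerase III, read 3.66 RPM in Control (9 reads) and 0 in all 3 SLEAR shRNA libraries. With 9 reads in 1 unreplicated library, the spread of the Control condition is not known. RMRP, the RNA of RNase MRP, read 1.74, 0.794, 1.64 and 0.698 RPM (13, 5, 11 and 3 reads). RPPH1, the RNA of RNase P, read 2.15, 1.28, 1.33 and 0 RPM (18, 9, 10 and 0 reads). Both lay below Control in all 3 SLEAR shRNA libraries, by -0.45 ± 0.63 (SE) and -0.85 ± 0.77 (SE), and neither passed the test.

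By place, 111 of the 150 rows lay in an intron of a gene on the same strand, 17 inside an exon, 5 in part in an exon and 9 in no gene on their strand. Strand was not found for 4 rows, and 4 were not in the RefSeq table. Of the intronic rows, 9 (8.11%) were above 0 in all 4 libraries and 22 (19.8%) held 10 or more estimated reads somewhere. Of the 9 rows with no host, 4 (44.4%) and 6 (66.7%) did, with the 2 MIR4426 rows counted separately. Ribosomal protein genes named RPL or RPS with a number host 22 rows, of which 17 were above 0 somewhere. SNORA62, in an intron of the ribosomal protein gene RPSA, is not in that count. SNHG genes or ZFAS1 host 28, of which 26 were above 0 somewhere. SNHG14, the long noncoding host of the SNORD116 copies, holds 7 rows, which together had 6, 11, 2 and 0 reads. The longest run of A in the sequence had a median of 3 bases both in the 32 members with 10 or more reads and in the 24 at 0 in every library for which a sequence was found.

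**Figure D5:**
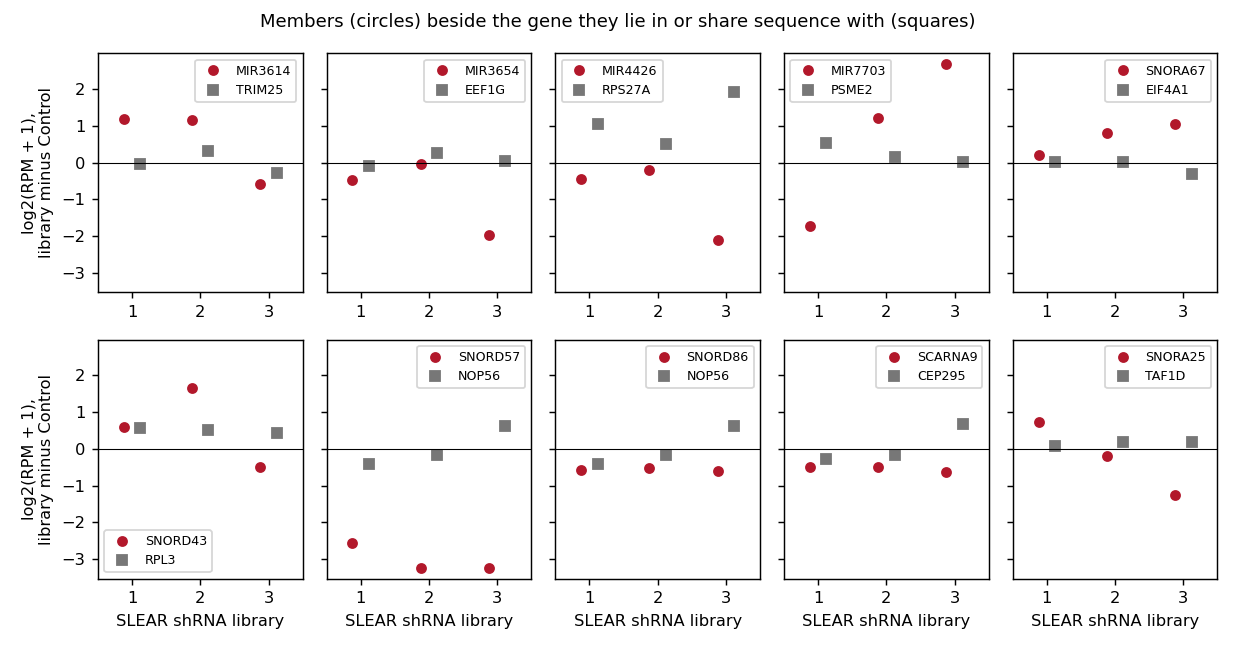
Each panel gives 1 member (red circles) and the gene in which it lies or whose mRNA holds the same sequence (grey squares), as log2(RPM + 1) in each SLEAR shRNA library minus Control. The squares of EIF4A1 lie between -0.32 and 0.02 while the circles of SNORA67 lie between 0.21 and 1.04. For MIR4426 and RPS27A the circles lie below 0 and the squares above it in all 3 libraries.

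The summed RPM of a class moved mostly with SLEAR shRNA-3. These sums and shares are of deposited RPM, in which the length factor gives shorter rows more weight, so they are not sums of reads. The microRNA sum also holds both MIR4426 rows, that is, the same reads 2 times. C/D box rows summed to 68.2, 63.1, 80.9 and 15.7 RPM. H/ACA rows summed to 51.7, 54.1, 48.1 and 34.0 RPM, of which SNORA67 made 41.7% on average. Cajal body rows summed to 51.3, 43.9, 48.6 and 33.3 RPM, with 59.5% in SCARNA9. MicroRNA rows summed to 131, 138, 162 and 78.3 RPM, with 37.8% in MIR3614. SLEAR shRNA-3 was the lowest library of all 4 sums, and SLEAR shRNA-1 and SLEAR shRNA-2 lay on both sides of Control except in the Cajal body class, where both lay below, and the microRNA class, where both lay above. As a mean log2 ratio to Control the sums were -0.66 ± 1.28 (C/D), -0.21 ± 0.35 (H/ACA), -0.31 ± 0.28 (Cajal body) and -0.12 ± 0.55 (microRNA; SD over 3 libraries). The C/D, H/ACA and microRNA values are smaller than their SD. Without SLEAR shRNA-3 they were 0.07 ± 0.25, -0.02 ± 0.12, -0.15 ± 0.10 and 0.19 ± 0.17 (SD, n = 2).

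Genes for proteins that make, bind and trim these RNAs, and a list of mostly noncoding host genes, were read from the same fit. In each of the 10 lists, 0 of the tested genes passed the adjusted threshold in limma. Over all tested rows, an unadjusted p under 0.05 was reached by 0.745% (higher) and 1.94% (lower), and 17.8% and 28.6% lay above and below Control in all 3 libraries. Of 12 tested genes for the C/D box core and its assembly, 1 had a higher value with an unadjusted p under 0.05 and 0 had a lower one, with a list median of -0.06. The higher one was PIH1D1, of the R2TP assembly complex, at 19.6 RPM in Control and 37.7, 44.3 and 40.7 RPM (difference 1.02 ± 0.28, SE, unadjusted p = 0.0190). FBL, the methyltransferase fibrillarin, read 399.3 RPM in Control against 501, 508 and 484 RPM, above it in all 3 libraries with a difference of 0.32 ± 0.17 (SE). Of 6 H/ACA genes 0 passed in either direction. NHP2, a core H/ACA protein, read 173 RPM in Control and 279, 279 and 196 RPM.

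Of 11 Cajal body genes, 0 reached an unadjusted p under 0.05, and COIL, the gene of the marker protein coilin, read 173 RPM against 150, 146 and 137 RPM. For microRNA processing and effector genes, 0 of 14 were higher and 1 was lower, with 8 of 14 below Control in all 3 libraries, 3 of 14 above it, and a median of -0.34, where the median of all tested rows was -0.11. The lower one was TNRC6B, a scaffold of the silencing complex, at 2.5045 RPM in Control and 0.142, 0 and 0 RPM, a row that reached the filter through Control alone. DGCR8, the RNA-binding partner of Drosha, read 21.7 RPM in Control and 36.5, 37.1 and 34.5 RPM, while DROSHA read 6.20 RPM in Control and 2.98, 2.13 and 0 RPM. The 2 partners thus lay on opposite sides of Control, and neither passed the test (unadjusted p = 0.0611 and 0.190).

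Among 20 tested genes of nuclear RNA tailing and decay, 1 lay higher and 1 lower with an unadjusted p under 0.05, and 8 lay above and 6 below Control in all 3 libraries. NCBP1, the large subunit of the nuclear cap-binding complex, read 53.2 RPM in Control and 92.9, 86.1 and 83.1 RPM (difference 0.70 ± 0.21, SE, unadjusted p = 0.0252). PAPD5, the noncanonical poly(A) polymerase that tails nuclear RNAs and snoRNA intermediates, read 2.62 RPM in Control and 0.426, 0.532 and 0 RPM, and reached the filter through Control alone. Of 9 RNase P and MRP proteins, RPP40 was higher, at 14.3 RPM against 37.3, 33.2 and 41.3 RPM (difference 1.32 ± 0.31, SE, unadjusted p = 0.0109), and 0 were lower. The vault proteins (3 tested), the Y RNA and RNA polymerase III 3′ end list (5) and the snRNA 3′ end processing list (14) each had 0 at an unadjusted p under 0.05. So did the list of host genes (17), which are noncoding apart from TAF1D. GAS5, a noncoding snoRNA host, read 374 RPM in Control and 481, 470 and 430 RPM.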

How the data were processed

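MAPS libraries of polyadenylated RNA from Jurkat cells were sequenced on an Illumina HiSeq 2500, per the labels' protocols. FastQC, Bowtie2, SAMtools and the hg19 build are named in the submitters' processing notes, and the sources used here do not give how reads were assigned to rows. The authors deposited 1 table of RPM (reads scaled to the library's total) per gene row, and 0 value columns were left unmapped. The rows held 85.3% to 89.5% of the total to which each column was scaled.

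The size of 1 read in each column was found from the low values (0.119, 0.142, 0.133 and 0.208 RPM in Control and the SLEAR shRNA libraries by number), and 96.4% to 96.8% of values were whole reads within 0.05. Differences on log2(RPM + 1) were fitted by limma 3.58.1 (R 4.3.3) with a mean-variance trend over rows with 1 RPM in at least 1 library, and adjusted by Benjamini-Hochberg. Before the fit, rows averaging 1 RPM or more with the same value in every library were joined. The alternatives were other scalings (TMM, median of ratios), filters and pseudocounts, limma-voom, unmerged rows and each SLEAR shRNA library left out. The script was tested on simulated data. Members and gene lists were chosen with earlier results of these data known. Named members are the 6 with the highest mean RPM in each class, those with an unadjusted p under 0.05, and those of at least 4 RPM on 1 side of Control in all 3 libraries, each with its host row, and up to 3 genes of each list with the smallest p. Where a host had several rows, the highest was used. Hosts, lengths and sequences come from RefSeq (GRCh38.p14) and GENCODE 29 by symbol, and no coordinates are given because the table is on hg19. Of the 150 lengths, 146 came from RefSeq and 3 from GENCODE.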

Additional observations from a re-analysis of the deposited data

How the results depend on the processing

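With 1 Control library, its own spread is unknown, and 3 reads set the limit of detection. No paired analysis was possible because the Control library carries no replicate number. Called rows stayed at 0, over all rows and over the members, under each alternative run except 1. That 1 left out SLEAR shRNA-3 and kept rows with log2(RPM + 1) averaging 4 or more. In it 697 of 4851 rows (14.4%) and 1 of 6 members (MIR3614, log2 difference 1.17) passed. The spread in that fit came from the trend over its rows and not from the scatter of each row. These passes are therefore no support for a difference and do not single out MIR3614. Members above Control in every SLEAR shRNA library numbered 2, then 1 with the higher filter and 1 with at least 10 estimated reads, a filter chosen after seeing the data, and 2 to 16 when 1 library was left out. Members below Control in every library numbered 28, then 3 with the higher filter, with or without SLEAR shRNA-3, and 17 with at least 10 estimated reads, and 30 to 34 when 1 library was left out. Without its highest row the log2 ratio of the H/ACA sum was -1.06 and that of the Cajal body sum 0.086. A further alternative, also added after seeing the data, removed the length factor and counted the reads shared by the 2 MIR4426 rows 1 time. It used estimated reads scaled to the library's total. MIR3607, MIR4647 and MIR4709, whose reads could not be estimated, were therefore left out of its microRNA sum. That sum had a log2 ratio of 0.21 in place of -0.12. Which of these changes, the omitted rows included, moved the value was not tested.

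Of the log2 differences of named members under the alternatives, 382 kept their direction and their side of the threshold and 16 changed sign, and the cause was not tested. With 1 SLEAR shRNA library left out at a time, the members that changed sign ranged as follows. SCARNA17 ran from -0.17 to 0.29, MIR6723 from -0.14 to 1.29, RNU4ATAC from -0.57 to 0.57 and SCARNA22 from -1.42 to 0.23. RNU11 ran from -0.61 to 0.069, SNORA25 from -0.73 to 0.28, SCARNA12 from -0.57 to 0.88 and SNORA31 from -0.59 to 0.039. MIR7703 ran from -0.26 to 1.95 and SNORD68 from -0.71 to 0.37. SLEAR shRNA-3 was the library left out at the changed sign of MIR6723, RNU4ATAC (0.57 with the higher filter too), SCARNA22, SNORA25 and MIR7703, SLEAR shRNA-1 at that of SCARNA12, SLEAR shRNA-2 at those of SCARNA17 and SNORA31, 2 and 3 each at that of RNU11, and 1 and 2 each at that of SNORD68. A pseudocount of 5 gave SCARNA12 0.12 and SNORD68 0.049, and a pseudocount of 0.1 gave MIR7703 -0.012.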

Other observations

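Members seen in 1 library alone numbered 9 in the Control library and 23, 23 and 1 in the SLEAR shRNA libraries by number, the last being MIR632. The highest estimated read number among them was 9, 8, 8 and 15 in the same order. Most members at these levels are thus single-library values of a few reads, and their side of Control is not a measured difference.

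Member rows that overlap each other shared reads. MIR1248 and SNORA81, which overlap in an intron of EIF4A2, held 3.5, 0.5, 4.5 and 0 estimated reads each, Control first. MIR6516 and SCARNA16, which overlap in SNHG20, held 0.5 of a read each in SLEAR shRNA-1. These 4 rows were the members whose values came out in steps of 0.5 of a read.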
